A study of Mus musculus with 6 samples.

Results

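The genes described here encode enzymes that make serine and proline and that pass carbon units from serine to folate in the telencephalon of newborn mice. The list of 10 named genes (Phgdh, Psat1, Psph, Shmt1, Shmt2, Mthfd1, Mthfd2, Mthfd1l, Aldh1l2 and Pycr1) was matched by symbol to the 22651 genes of the tables. The 10 genes were selected on the TPM and count differences between the 2 groups compared below. The match gave 9 members, and Psat1, the aminotransferase of serine synthesis, was not analysed here. All 9 members passed the filter on low counts that left 13969 genes for testing. The mRNA-sequencing compared 3 mice of the genotype TSC1 flox/flox;Emx1 +/+ (WT) with 3 mice of the genotype TSC1 flox/flox;Emx1-cre/+ (TSC1), all at postnatal day 0. Every mouse therefore carried the floxed alleles. According to the methods of the study the WT mice were Cre-negative littermates, and Cre removed exons 17 and 18 of Tsc1, an inhibitor of mTOR signaling, in the embryonic dorsal cortex, so that cells outside the Emx1 lineage in the same tissue kept the gene. In bulk tissue a change in the number of cells of a type and a change in RNA per cell cannot be told apart.

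Serine is made from a glycolytic intermediate in the cytosol by the successive action of Phgdh, Psat1 and Psph. Serine hydroxymethyltransferases, Shmt1 in the cytosol and Shmt2 in mitochondria, split serine to glycine and load its side-chain carbon onto tetrahydrofolate. In mitochondria the carbon is oxidised by Mthfd2 and is then either released as formate by Mthfd1l or burned to CO2 by Aldh1l2. In the cytosol a single trifunctional enzyme, Mthfd1, interconverts the same folate forms and feeds purine and thymidylate synthesis. Pycr1 carries out the last step of proline synthesis in mitochondria. In cultured cells, mTORC1 is known to raise several of these genes through the transcription factor ATF4.

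The libraries held between 14119365 and 17772865 expected counts, at which 3 counts of a gene correspond to 0.169 to 0.212 CPM (counts scaled to the library total), a floor that covers counting error only. Mice are named below by genotype and replicate number. Tsc1 had 50.2, 32.0 and 28.4 TPM (the RSEM abundance of a gene relative to all transcripts of the library, corrected for length) in WT mice 1 to 3 and 27.1, 21.7 and 22.4 TPM in TSC1 mice 1 to 3. The groups did not overlap, and the log2 change of -0.66 (SE 0.175) was not called (edgeR, adjusted p = 0.09998). The count covers undeleted exons and cells without Cre. The telencephalic markers Emx1 and Lhx2 were at 36.2 to 47.4 and 111 to 157 TPM over the 6 mice. Mouse 3 was the male of each group by Ddx3y, which had 64.3 TPM in WT mouse 3, 62.0 TPM in TSC1 mouse 3 and 0 in the other mice.

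The contrast of TSC1 with WT was known when the 10 genes were listed, so the differences of the members between the groups are given as a description. Of the 9 members, 5 were called at an edgeR adjusted p below 0.05 over all genes, all of them higher in TSC1, beside 0.859% of all tested genes called higher and 1.52% called in either direction. The called members were Mthfd2, Psph, Shmt2, Mthfd1l and Aldh1l2, that is 4 of 5 mitochondrial and 1 of 4 cytosolic enzymes. In 7 of the 9 members the TPM of all 3 TSC1 mice lay above those of all 3 WT mice, as it did in 12.3% of all tested genes. The members left were the cytosolic enzymes Shmt1 and Mthfd1. The median log2 change was 0.99 over the 5 mitochondrial members, 0.26 over the 4 cytosolic members and -0.0027 over all tested genes.

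The same 5 members were called with RLE normalization (0.873% of all tested genes called higher), upper quartile normalization (0.623%), no filter on counts (0.971%), at least 10 counts in every sample (0.92%), effective length offsets (0.823%) and limma on log2(TPM + 1) (0.953%). DESeq2 also called Phgdh and Pycr1, 7 of 9 members in all, beside 2.4% of all tested genes called higher. The calls of Psph and Aldh1l2 held whichever mouse was left out, and those of the other members did not. Only these 2 members were called without WT mouse 2 (0.171% of all tested genes called higher) and without WT mouse 3 (0.184%). Without TSC1 mouse 2 Shmt2 was called as well (0.233%), and without TSC1 mouse 1 Shmt2 and Mthfd1l were (0.233%). All 5 were called without WT mouse 1 (1.99%) and without TSC1 mouse 3 (2.61%).

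**Figure D1:**
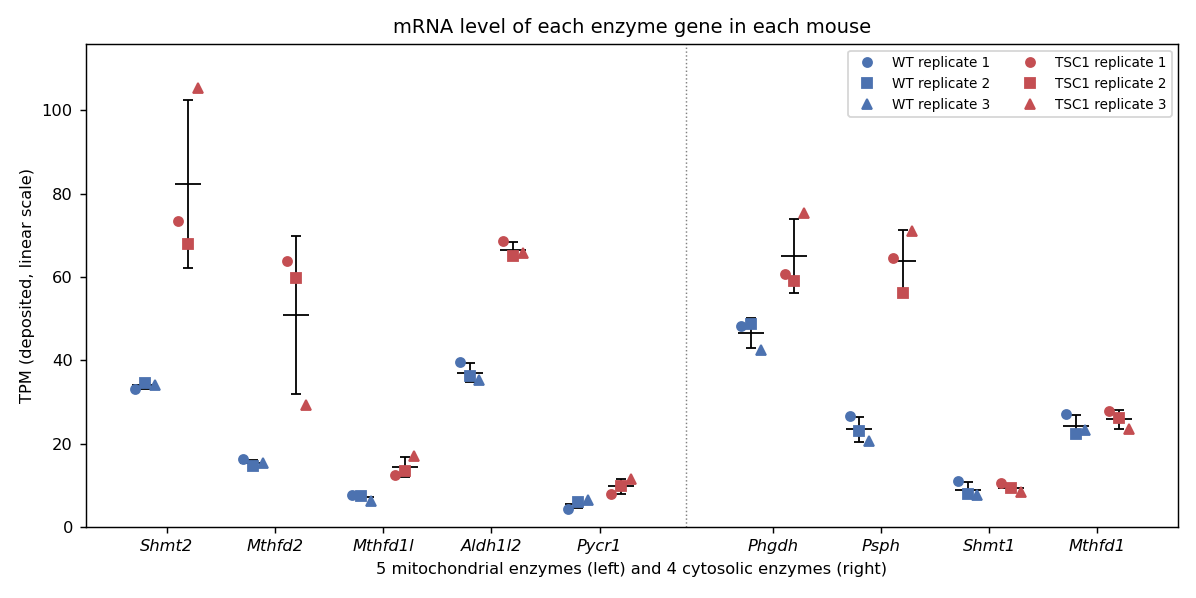
Level of each of the 9 members in TPM (linear axis) in each mouse, WT in blue and TSC1 in red, with the replicate number given by the symbol. Horizontal bars are means and vertical bars are SD over 3 mice; the TSC1 points lie above the WT points for all genes except Shmt1 and Mthfd1.

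Mthfd2, the mitochondrial dehydrogenase and cyclohydrolase of the folate pathway (chromosome 6, 83305704 to 83326011, in the RefSeq annotation of GRCm38, the assembly of mm10), had the largest log2 change among the members. Its level was 16.2, 14.6 and 15.3 TPM in WT mice 1 to 3, and 63.7, 59.7 and 29.2 TPM in TSC1 mice 1 to 3. The WT mice were nearly alike, whereas TSC1 mouse 3 had less than the other TSC1 mice but still more than any WT mouse. The mean was 15.4 ± 0.795 TPM in the WT mice and 50.8 ± 18.9 TPM in the TSC1 mice (SD, n = 3 each), a log2 change of 1.69 (SE, standard error, 0.251), or 3.23-fold.

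Shmt2, the mitochondrial hydroxymethyltransferase (chromosome 10, 127517123 to 127522444), was at 33.2, 34.6 and 34.0 TPM in WT mice 1 to 3. In TSC1 mice 1 to 3 it was at 73.5, 68.0 and 105 TPM. Here TSC1 mouse 3 was the highest of the 6 mice, the opposite of its place among TSC1 mice for Mthfd2. The mean was 33.9 ± 0.733 TPM in the WT mice and 82.3 ± 20.2 TPM in the TSC1 mice (SD, n = 3 each), and the log2 change was 1.25 (SE 0.162).

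Aldh1l2, which oxidises formyl-tetrahydrofolate to CO2 in mitochondria with the production of NADPH, had the smallest spread on the log2 scale among the TSC1 mice of all members (chromosome 10, 83487447 to 83534146). It had 39.6, 36.3 and 35.2 TPM in WT mice 1 to 3, and 68.7, 65.1 and 65.8 TPM in TSC1 mice 1 to 3. The mice of each group were close to each other and the groups were far apart, and the log2 change was 0.82 (SE 0.0626). Of all tested genes, 97.9% had a larger SD of log2 CPM among the TSC1 mice than Aldh1l2, and only 3.08% had a larger one than Mthfd2.

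Mthfd1l, which releases formate from mitochondria (chromosome 10, 3972892 to 4167081), had 7.69, 7.34 and 6.29 TPM in WT mice 1 to 3, and 12.4, 13.5 and 17.02 TPM in TSC1 mice 1 to 3. Its log2 change was 0.99 (SE 0.151), and TSC1 mouse 3 was again the highest. Pycr1, the proline enzyme (chromosome 11, 120638998 to 120643748), was the least abundant member in WT. It had 4.33, 5.87 and 6.49 TPM in WT mice 1 to 3, and 7.79, 9.75 and 11.5 TPM in TSC1 mice 1 to 3. The groups did not overlap, and its log2 change of 0.77 (SE 0.214) was not called by edgeR. Its expected counts were 72 to 111 in WT and 120 to 193 in TSC1.

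Among the cytosolic enzymes the steps of serine synthesis differed in size. Psph, the phosphatase that releases serine (chromosome 5, 129765558 to 129787443), had 26.6, 22.9 and 20.6 TPM in WT mice 1 to 3. In TSC1 mice 1 to 3 it had 64.5, 56.3 and 71.0 TPM, and the TSC1 mice had 2.41 to 3.04 times the WT mean. Its log2 change of 1.42 (SE 0.124) was second to that of Mthfd2 among the members. Phgdh, the first and committed step (chromosome 3, 98313171 to 98339969), had 48.3, 48.7 and 42.4 TPM in WT mice 1 to 3, and 60.7, 59.1 and 75.3 TPM in TSC1 mice 1 to 3. The groups did not overlap, and the log2 change of 0.46 (SE 0.116) was not called by edgeR. The TPM of Psph was 0.551, 0.470 and 0.486 times that of Phgdh in WT mice 1 to 3, and 1.06, 0.952 and 0.943 times in TSC1 mice 1 to 3.

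The cytosolic folate enzymes overlapped between the groups. Shmt1 (chromosome 11, 60788897 to 60811265) had 11.1, 7.97 and 7.74 TPM in WT mice 1 to 3, and 10.4, 9.22 and 8.33 TPM in TSC1 mice 1 to 3. Its log2 change was 0.033 (SE 0.171), and its sign turned without WT mouse 2, WT mouse 3 or TSC1 mouse 1. Mthfd1 (chromosome 12, 76254406 to 76319820) had 27.2, 22.3 and 23.2 TPM in WT mice 1 to 3, and 27.9, 26.1 and 23.4 TPM in TSC1 mice 1 to 3. Its log2 change was 0.062 (SE 0.0998). Counts of 83 to 130 for Shmt1 and of 405 to 517 for Mthfd1 lay behind these values.

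To contrast the compartments within each mouse, the TPM of each mitochondrial enzyme was divided by that of its cytosolic counterpart, a ratio that does not depend on the scaling between libraries. Shmt2 was 2.99, 4.35 and 4.39 times as abundant as Shmt1 in WT mice 1 to 3, and 7.05, 7.38 and 12.7 times in TSC1 mice 1 to 3. For Mthfd1l over Mthfd1 the ratio was 0.283, 0.330 and 0.271 in WT and 0.446, 0.517 and 0.728 in TSC1, in the same order of mice. Mthfd2 over Mthfd1 gave 0.596, 0.656 and 0.656 in WT and 2.29, 2.29 and 1.25 in TSC1, so that the mitochondrial transcript was the less abundant of the pair in every WT mouse and the more abundant in every TSC1 mouse. Aldh1l2 passed its cytosolic counterpart Aldh1l1, an enzyme also used as an astrocyte marker, in the same way. Their ratio was 0.715, 0.707 and 0.687 in WT and 1.28, 1.36 and 1.29 in TSC1.

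**Figure D2:**
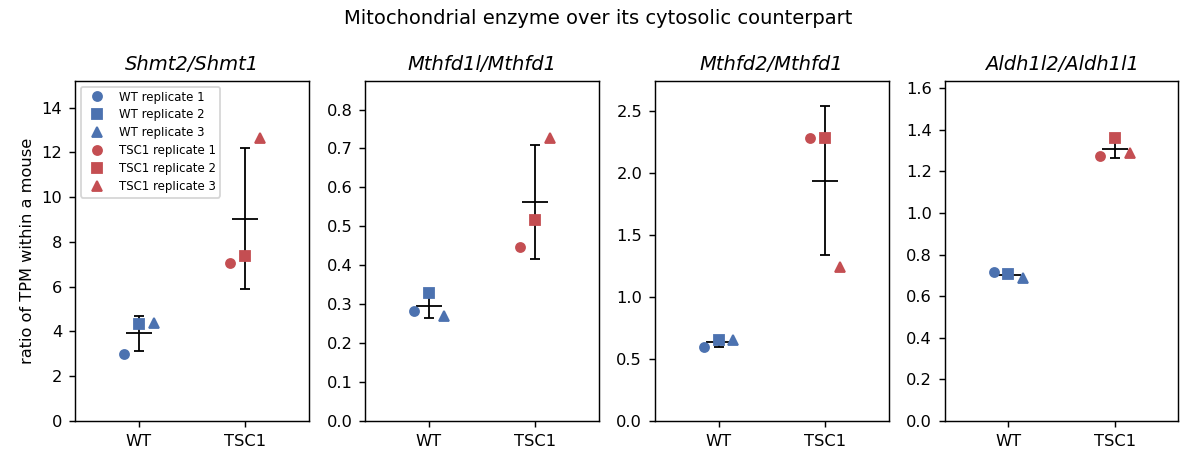
Ratio of the TPM of a mitochondrial enzyme to that of its cytosolic counterpart within each mouse (linear axes starting at 0, each panel with its own scale), WT in blue and TSC1 in red, with mean and SD over 3 mice. In each of the 4 pairs the 3 TSC1 mice lie above the 3 WT mice, and TSC1 mouse 3 is the highest for Shmt2/Shmt1 and Mthfd1l/Mthfd1 and the lowest for Mthfd2/Mthfd1.

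The summed TPM of the 5 mitochondrial members was 101, 98.7 and 97.2 in WT mice 1 to 3 and 226, 216 and 229 in TSC1 mice 1 to 3. The opposite deviations of Mthfd2 and Shmt2 in TSC1 mouse 3 thus nearly cancelled in the sum. The 4 cytosolic members summed to 113, 102 and 94.0 TPM in WT and to 164, 151 and 178 TPM in TSC1. The mitochondrial members made up 49.1% ± 1.86 (SD, n = 3) of the sum of all 9 members in WT and 57.7% ± 1.35 (SD, n = 3) in TSC1.

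The order of the members by level differed between the groups. By mean TPM it ran in WT from Phgdh (46.5 ± 3.54, SD, n = 3) over Aldh1l2 (37.0 ± 2.32), Shmt2 (33.9 ± 0.733), Mthfd1 (24.2 ± 2.61), Psph (23.4 ± 3.05), Mthfd2 (15.4 ± 0.795), Shmt1 (8.94 ± 1.88) and Mthfd1l (7.11 ± 0.729) to Pycr1 (5.56 ± 1.11). Of the neighbours in that order, Mthfd1 and Psph overlapped over the 3 mice, as did Mthfd1l and Pycr1. In TSC1 it ran from Shmt2 (82.3 ± 20.2, SD, n = 3) over Aldh1l2 (66.6 ± 1.93), Phgdh (65.0 ± 8.94), Psph (63.9 ± 7.39), Mthfd2 (50.8 ± 18.9), Mthfd1 (25.8 ± 2.25), Mthfd1l (14.3 ± 2.40) and Pycr1 (9.69 ± 1.87) to Shmt1 (9.33 ± 1.05). There each of the first 5 genes overlapped the next one among those 5 in range, and Pycr1 overlapped Shmt1. Mthfd1 lay in the middle of the WT order. In TSC1 it was at almost the same level, and its mean lay well below the means of the first 5 genes. Over the TSC1 mice its highest value (27.9 TPM) was just below the lowest of Mthfd2 (29.2 TPM).

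The TSC1 mice did not have the same profile over the members. Relative to the WT mean, Mthfd2 was 4.15, 3.88 and 1.90 times as high in TSC1 mice 1 to 3, whereas Shmt2 was 2.17, 2.004 and 3.11 times as high. Phgdh, Psph, Shmt2, Mthfd1l and Pycr1 were all highest in TSC1 mouse 3 among the TSC1 mice, and Shmt1, Mthfd1 and Mthfd2 were lowest there. Atf4, the transcription factor gene named above, had 217, 219 and 210 TPM in WT mice 1 to 3 and 474, 311 and 204 TPM in TSC1 mice 1 to 3. TSC1 mouse 3 had the lowest Atf4 level of the 6 mice, and TSC1 mice 1 and 2 had the highest. Over the 6 mice the log2 CPM of Atf4 had a Pearson r of 0.830 with that of Mthfd2 and 0.642 with that of Mthfd1. With the other members r was 0.595 (Aldh1l2), 0.518 (Psph), 0.423 (Shmt1), 0.357 (Shmt2), 0.332 (Mthfd1l), 0.199 (Pycr1) and 0.187 (Phgdh). Mthfd1 and Shmt1, which overlapped between the groups, thus had a higher r than Shmt2. These coefficients share the difference between the groups and the same 6 libraries, and they are a description. Without TSC1 mouse 3 the log2 change of Mthfd2 was 1.97, that of Shmt2 1.02 and that of Phgdh 0.32.

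**Figure D3:**
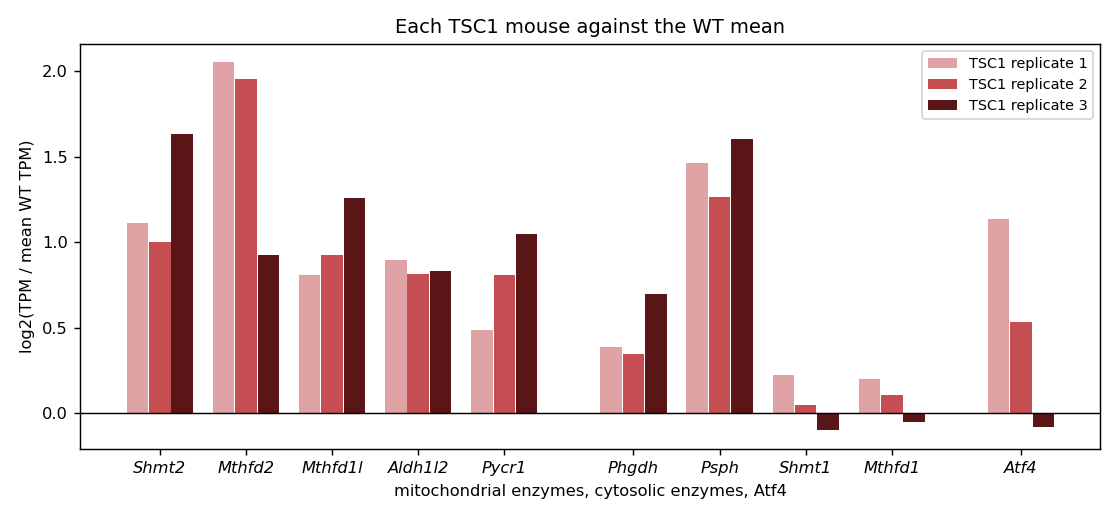
Log2 of the TPM of each TSC1 mouse over the mean TPM of the 3 WT mice, for the 5 mitochondrial members, the 4 cytosolic members and Atf4 (bars start at 0, which is the WT mean; shades give the replicate). TSC1 mouse 3 has the longest bar for Shmt2, Mthfd1l, Pycr1, Phgdh and Psph, and has a much shorter bar than the other mice for Mthfd2 and a bar just below 0 for Atf4.

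The other genes of these pathways were followed through a list of 42 genes, of which 40 were in the tables and 36 passed the filter. None of the 36 was called by edgeR's quasi-likelihood test at an adjusted p below 0.05. At an unadjusted p below 0.05 there were 7 of 36, beside 18% of all tested genes. DESeq2 called 2 of the 36, including Folr1, beside 636 of all 13969 tested genes. Limma on log2(TPM + 1) called 1, Folr1, beside 267 of the 13844 genes it tested. Over the 36 genes 16 were higher and 20 lower in TSC1, and the median log2 change was -0.019, near the -0.0027 of all tested genes.

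In the mitochondrial folate group 0 of 8 tested genes were called by edgeR, DESeq2 or limma, and 0 had an unadjusted p below 0.05. The group included Slc25a32, the carrier that brings folate into mitochondria. It had 12.3 ± 2.94 TPM in the WT mice and 12.7 ± 1.66 TPM in the TSC1 mice (SD, n = 3 each), and the log2 change was 0.019 (SE 0.165, edgeR adjusted p = 0.966). Mthfd2l, an isozyme of Mthfd2, was more abundant than Mthfd2 in WT, with 23.5, 18.8 and 18.5 TPM in mice 1 to 3. In TSC1 mice 1 to 3 it had 17.8, 18.5 and 15.8 TPM and was less abundant than Mthfd2 in each, and the log2 change was -0.25 (SE 0.123, edgeR adjusted p = 0.322). The glycine cleavage gene Gldc was not analysed here.

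Of the 12 cytosolic folate genes 0 were called by edgeR, and 2 of them, including Folr1, had an unadjusted p below 0.05. DESeq2 called 2 of the 12, including Folr1, beside 636 of all 13969 tested genes. Limma called only Folr1 among them, beside 267 of 13844. Tyms, the thymidylate synthase, had a log2 change of -0.13 (SE 0.137, edgeR adjusted p = 0.651), and Aldh1l1 had -0.076 (SE 0.0739, adjusted p = 0.629).

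Folr1, a folate receptor that is abundant in the choroid plexus, had 14.1, 10.4 and 20.8 TPM in WT mice 1 to 3, and 1.67, 2.34 and 6.91 TPM in TSC1 mice 1 to 3. The groups did not overlap, and the log2 change of -2.06 (SE 0.458) did not pass (edgeR adjusted p = 0.0637, and 0.000226 to 0.243 over the alternatives). All 3 choroid plexus markers (Ttr, Kl and Clic6) were lower in TSC1, with 0 of 3 called by edgeR or DESeq2 and 3 of 3 at an unadjusted p below 0.05. Their summed level, mostly Ttr, ranged from 1149 to 2424 TPM in WT and from 26.1 to 849 TPM in TSC1. Their part in the value of Folr1 was not tested.

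In the proline group 0 of 5 tested genes were called by edgeR, DESeq2 or limma, and 2 of 5 had an unadjusted p below 0.05. Aldh18a1, which makes the precursor that Pycr enzymes reduce, was not analysed here. The 2 genes with an unadjusted p below 0.05, singled out after their values were seen, were Prodh, which breaks proline down, and Pycrl, another reductase of proline synthesis. Prodh had 3.47, 5.29 and 3.62 TPM in WT mice 1 to 3 and 8.25, 6.30 and 7.82 TPM in TSC1 mice 1 to 3, and the log2 change was 0.81 (SE 0.212, edgeR adjusted p = 0.0926). Pycrl had 49.0, 51.6 and 49.2 TPM in WT and 39.0, 39.6 and 39.8 TPM in TSC1, and the log2 change was -0.37 (SE 0.0933, edgeR adjusted p = 0.0852).

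In the methionine cycle 0 of 5 tested genes were called by edgeR, DESeq2 or limma, with 1 at an unadjusted p below 0.05. Among the genes that use serine and glycine 0 of 4 were called by those tools, with 1 at an unadjusted p below 0.05. Of the regulators, Myc had a log2 change of -0.056 (SE 0.101, edgeR adjusted p = 0.810) and Atf4 one of 0.57 (SE 0.229, edgeR adjusted p = 0.227). Atf4 was called only in the fit without TSC1 mouse 3.

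**Figure D4:**
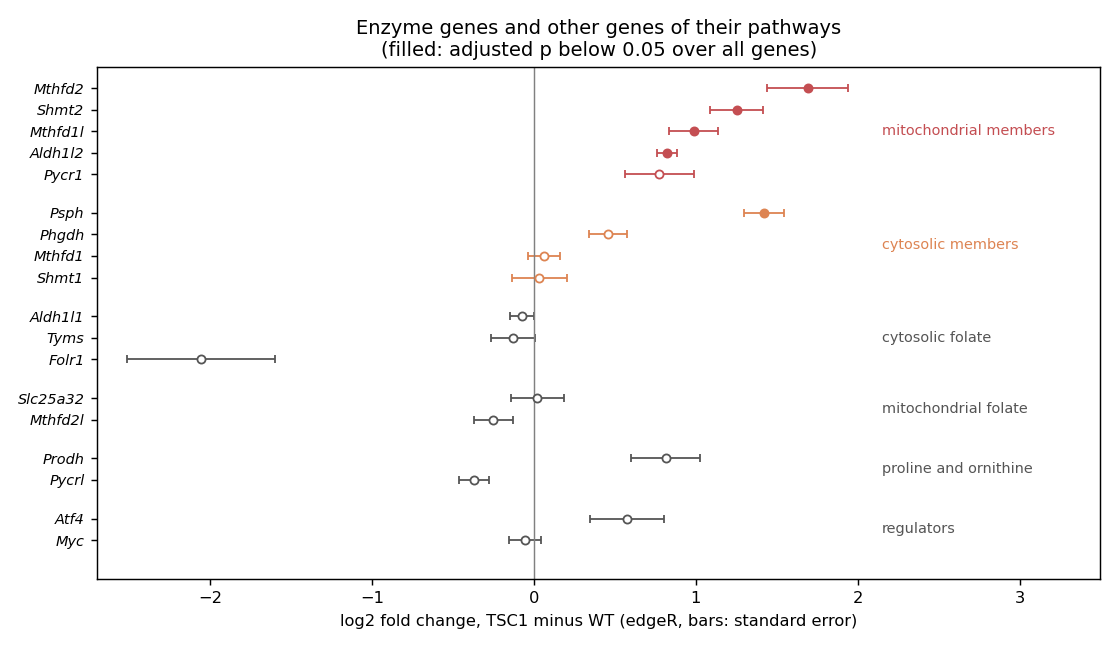
Log2 fold change of TSC1 against WT from edgeR, with its standard error, for the 9 members (red and orange) and for 9 other genes of the same pathways named in the text (grey); filled circles have an adjusted p below 0.05 over all genes. The 4 filled red circles and the 1 filled orange circle are members, no grey circle is filled, and Folr1 stands at the far left at -2.06.

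Phgdh is known to be high in radial glia and astrocytes, and folate enzymes in dividing cells. Markers of these cells are therefore given beside the members. Of 8 radial glia and astrocyte markers, 2 were higher and 6 lower in TSC1 (median log2 change -0.12). Only Aldoc was called, higher at 0.60 (SE 0.0866, edgeR adjusted p = 0.0195). The summed TPM of this list was 3200 to 3798 in WT and 3222 to 3432 in TSC1. All 7 markers of cycling cells were lower in TSC1 (median log2 change -0.33). None was called by edgeR, 4 had an unadjusted p below 0.05, and DESeq2 called 2, Top2a and Mcm5. Their summed TPM was 281 to 307 in WT and 254 to 264 in TSC1. Of the 5 subpallial markers 3 were called, all lower in TSC1 (Dlx1, Gad1 and Gad2), and the list summed to 328 to 386 TPM in WT and 192 to 257 TPM in TSC1. Of 4 pallial neuron markers edgeR called 0, 1 had an unadjusted p below 0.05 and DESeq2 called 1, and the list summed to 1300 to 1480 TPM in WT and 1333 to 1759 TPM in TSC1. EdgeR called 0 of 4 oligodendrocyte lineage, 0 of 4 microglia, 0 of 4 endothelium and 0 of 3 erythroid markers, with 1, 2, 3 and 3 of them at an unadjusted p below 0.05. DESeq2 called Olig1, Cldn5 and Cdh5 among these, and all 4 endothelium and all 3 erythroid markers were lower in TSC1. Each erythroid marker was highest in WT mouse 3, and Hba-a1 and Alas2 overlapped between the groups, whereas Hbb-b1 did not. Hba-a1 had 1240, 1688 and 4554 TPM in WT mice 1 to 3, and 1284, 1017 and 1527 TPM in TSC1 mice 1 to 3. Of all tested genes edgeR called 1.52% in either direction, and 18% had an unadjusted p below 0.05. DESeq2 called 636 of the 13969 tested genes. The part of these cell types in the levels of the members was not tested.

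The genes whose log2 CPM over the 6 mice was most like the mean profile of the 5 mitochondrial members were Mars, Aars, Yars, Lars and Slc7a3, in that order. The first 4 encode cytosolic aminoacyl-tRNA synthetases, which charge tRNA with methionine, alanine, tyrosine and leucine, and Slc7a3 encodes a transporter of cationic amino acids. Their Pearson r with that profile ranged from 0.995 to 0.999 over 6 mice, and all 5 genes share the difference between the groups with it. Mars had 62.3, 64.7 and 63.7 TPM in WT mice 1 to 3, and 104, 105 and 112 TPM in TSC1 mice 1 to 3. Slc7a3 had 4.90, 5.29 and 7.53 TPM in WT mice 1 to 3, and 66.8, 64.4 and 115 TPM in TSC1 mice 1 to 3, so that TSC1 mouse 3 was the highest mouse, as for Shmt2.

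Since several members were higher together, the promoter windows of RefSeq (GRCm38.p6, 250 bases before to 50 after the start) were searched on both strands for TGATGNAA, the core of the C/EBP-ATF response element that ATF4 binds, and for the E-box CACGTG. A window was found for 8 of the 9 members, all but Aldh1l2. The response element core was in 1 of the 8, that of Pycr1, and in 3.97% of all 32851 windows. The E-box was in 0 of the 8 and in 7.15% of all windows. The Pycr1 match lay 103 to 96 bases before the start, at 120643844 to 120643851 of chromosome 11, on the strand of the gene. The windows of Pycr1 (chr11:120643699-120643998, minus strand) and of the gene with the largest log2 change, Mthfd2 (chr6:83317555-83317854, minus strand), are shown with those of the hydroxymethyltransferase pair, Shmt2 (chr10:127522395-127522694, minus strand) and Shmt1 (chr11:60811216-60811515, minus strand), of which the former gene was called and the latter was not. The window of Mthfd2 belongs to a start inside the annotated span of the gene, not at its outer end. Capitals mark the response element core.
Pycr1: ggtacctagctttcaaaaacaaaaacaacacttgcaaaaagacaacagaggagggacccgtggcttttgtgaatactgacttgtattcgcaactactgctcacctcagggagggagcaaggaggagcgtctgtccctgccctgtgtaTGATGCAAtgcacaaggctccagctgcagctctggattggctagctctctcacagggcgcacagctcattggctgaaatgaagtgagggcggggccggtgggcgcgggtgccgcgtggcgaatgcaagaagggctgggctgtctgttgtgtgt
Mthfd2: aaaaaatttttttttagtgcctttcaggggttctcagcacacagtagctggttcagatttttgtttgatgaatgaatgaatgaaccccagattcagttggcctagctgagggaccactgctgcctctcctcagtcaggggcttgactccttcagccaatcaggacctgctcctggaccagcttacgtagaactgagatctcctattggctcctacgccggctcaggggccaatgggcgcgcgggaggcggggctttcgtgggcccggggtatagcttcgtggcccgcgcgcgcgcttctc
Shmt2: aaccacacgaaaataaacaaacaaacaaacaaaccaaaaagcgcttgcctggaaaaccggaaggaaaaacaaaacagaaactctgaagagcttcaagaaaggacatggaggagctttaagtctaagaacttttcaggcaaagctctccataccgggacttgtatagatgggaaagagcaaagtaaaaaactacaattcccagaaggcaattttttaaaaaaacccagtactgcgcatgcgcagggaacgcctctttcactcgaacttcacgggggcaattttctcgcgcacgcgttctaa
Shmt1: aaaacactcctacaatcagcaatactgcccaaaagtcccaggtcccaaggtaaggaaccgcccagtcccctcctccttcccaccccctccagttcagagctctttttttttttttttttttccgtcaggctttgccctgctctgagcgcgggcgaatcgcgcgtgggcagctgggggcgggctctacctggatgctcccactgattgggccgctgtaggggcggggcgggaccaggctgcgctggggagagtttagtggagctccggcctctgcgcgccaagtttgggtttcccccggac
The windows of the members ranged in GC content from 42.7% in Shmt2 to 65.0% in Psph, around the median of 52.7% over all windows, and that of Shmt1 held 60.7%. A match is a description of the letters, and elements outside these windows were not searched.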

How the data were processed

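Telencephalon mRNA of 3 WT and 3 TSC1 mice was analysed, with groups and replicate numbers from the sample titles. Reads had been trimmed, mapped to mm10 (MapSplice2) and assigned to genes with RSEM 1.2.12 by the authors. They deposited for each mouse an expected count, which is not normalized, a TPM, which RSEM scales to the transcripts of the sample, and other values in base pairs, the transcript length and the effective length. Per the file headers these are RSEM's gene-level output. The effective length was 45.8 to 49.7 bases below the transcript length in WT and 55.1 to 57.6 in TSC1.

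Expected counts were rounded and tested with edgeR 4.0.16 in R 4.3.3 (TMM, filterByExpr, quasi-likelihood test, Benjamini-Hochberg adjustment over all tested genes). Levels between genes were compared in TPM. The standard error of an edgeR log2 change was derived as its absolute value divided by the square root of the quasi-likelihood F statistic. Log2 CPM used a prior count of 2. Promoter windows and gene positions are RefSeq's. Python 3.11.15 was used for the rest. The members, the pathway and marker lists and the rule for naming genes (all members, called or pre-listed pathway genes, and the 5 genes most like the mitochondrial members) were chosen with earlier results of these data known.

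Alternatives were RLE and upper quartile normalization, DESeq2 1.42.0, limma 3.58.1 on log2(TPM + 1) (genes reaching 1 TPM in 3 or more mice), no filter, at least 10 counts in every sample, effective length offsets, a replicate block and each mouse left out. The tests were checked on simulated counts with known changes. Comparison of proteins between isozymes was not made. Some genes of the pathway and marker lists entered the counts but are not reported here by name.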

Additional observations from a re-analysis of the deposited data

How the results depend on the processing

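Over all genes 212 were called, 636 with DESeq2, 346 with no filter, and 29 to 799 with 1 mouse left out (29 without WT mouse 2, 799 without TSC1 mouse 3). Of the members 2 to 5 were called with 1 mouse left out. Of the other pathway genes 0 were called, 2 with DESeq2, 1 with limma, 1 with no filter and 0 to 3 with 1 mouse left out, the 3 being without TSC1 mouse 3, Folr1 and Atf4 among them. The median log2 change ranged from 0.826 to 1.09 over the mitochondrial members and from 0.221 to 0.327 over the cytosolic members with 1 mouse left out. That of Shmt1 ranged from -0.041 to 0.19 and was reversed without WT mouse 2 (-0.0407), WT mouse 3 (-0.0392) and TSC1 mouse 1 (-0.0379). The 4 within-mouse ratios were rerun only from expected counts per kilobase and with each mouse left out, and kept their direction. As the groups did not overlap in any of the 4 ratios, leaving out a mouse could not turn it, so those runs are no check of the direction. The cause of these differences was not tested.

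The replicate numbers are shared by the groups. The deviations of same-numbered mice from their group means had r of 0.267, -0.133 and 0.318 for mice 1 to 3. For mice of unlike number r ranged from -0.394 to 0.211, below the values of mice 1 and 3. Mouse 3 was also the male of each group. These values do not settle whether the numbers pair the mice, and the main fit used neither the numbers nor sex. A block by number also sets the male of each group apart. With the replicate number as a block 551 genes, 6 members (Pycr1 in addition) and 1 other pathway gene (Folr1) were called.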

Other observations

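The profiles of Shmt2 and Mthfd2 over the 6 mice were compared with those of all tested genes in log2 CPM, a comparison added after the data were seen. The genes are picked for their likeness, which fixes both the difference between the groups and the place of TSC1 mouse 3, so they are a description. Those most like Shmt2 were Atf5, Mt2, Nars, Cpne4 and Klhdc10, in that order, with Pearson r from 0.990 to 0.998 (n = 6). Atf5, a transcription factor of the ATF4 family, had 27.4, 26.5 and 28.3 TPM in WT mice 1 to 3 and 63.4, 61.2 and 99.5 TPM in TSC1 mice 1 to 3. Nars, the cytosolic asparaginyl-tRNA synthetase, had 231, 231 and 244 TPM in WT mice 1 to 3 and 400, 394 and 480 TPM in TSC1 mice 1 to 3. Those most like Mthfd2 were Recql5, Mpv17l, Adamts18, Cry2 and Smyd4, with r from 0.992 to 0.994 (n = 6). Recql5, a DNA helicase, had 10.8, 9.86 and 9.88 TPM in WT mice 1 to 3 and 14.8, 14.9 and 11.98 TPM in TSC1 mice 1 to 3.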
